A study of Mus musculus with 72 samples.

Results

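The genes described here are the stress sensor pair Nfe2l2 and Keap1, 4 targets of the factor that Nfe2l2 encodes (Nqo1, Hmox1, Txnrd1 and Srxn1), and the metallothioneins Mt1 and Mt2. They were chosen by symbol, and all 8 were found among the 22823 genes of the liver count table and among the 15759 genes of the table for the suprachiasmatic nucleus (SCN), the circadian pacemaker of the hypothalamus. C57BL/6J mice aged 8 to 12 weeks ate either a diet without methionine and choline (MCD) or its isocaloric control for 11 days. They were kept for 10 days in light and dark and then in constant darkness, and were killed every 4 h at circadian times (CT) 0 to 20. RNA came from the left lobe of the liver and from SCN cut out by laser. There were 3 libraries for every tissue and diet at every time, 24 groups in all, and numbers 1 and 2 were males and number 3 was a female, although the written protocol speaks of male mice alone. The mice carried no transgene or mutation by the labels, so the groups differed in diet, time and tissue.

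The liver libraries held 52.6 to 86.7 M counts and the SCN libraries 23.3 to 79.8 M. Levels are CPM, the counts of a gene per M counts of its library (M for mega), scaled by edgeR's TMM factors. Both columns for control males at CT08 carried the same name in each table and are called (a) and (b) here. Liver control CT08 (a) goes against its label and is called control here by that label alone. Each liver was placed on the line between the control mean, set to 0, and the MCD mean, set to 1, over all 20249 genes tested (log2 of CPM + 1, means without the library placed). Control CT08 (a) stood at 0.974. The other 17 controls lay between -0.263 and 0.294, and the MCD livers between 0.561 and 1.45. Among those controls the females ran from 0.179 to 0.294 and the males from -0.263 to -0.0404. Control CT08 (a) was the highest control for Nqo1, Hmox1, Txnrd1 and Srxn1. Whether it is mislabelled was not tested, and liver values of the 8 genes are given with and without it where it bears on them. The liver libraries also fell into 2 sets by the level of the mitochondrial transcript mt-Nd6, a low set of 21 (8 control, 13 MCD) and a high set of 15 (10 control, 5 MCD). No label names this split, and diet averages within each set are given beside the pooled ones. The tissues matched their labels: the hepatocyte markers Alb, Apoa1, Ttr and Cps1 summed to 52936 to 114391 CPM in the livers, and all 7 SCN neuron markers were listed in the SCN table, with sums of 1630 to 4212 CPM.

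NRF2, the protein of Nfe2l2, is a transcription factor that KEAP1 binds and marks for destruction. Oxidants and electrophiles modify KEAP1, and NRF2 then collects in the nucleus and binds antioxidant response elements (AREs) with a small MAF partner. Its targets rebuild glutathione and thioredoxin, conjugate and export toxins, and break down heme. Metallothioneins are small cysteine-rich proteins that hold zinc and copper. Their genes answer to metals through the factor MTF1 at metal response elements (MREs), and also to glucocorticoids and oxidants. The liver makes both systems in quantity, and methionine is a source of the cysteine in its glutathione.

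The upstream sequences of 3 genes are shown because these genes were among the 5 with the largest liver responses to the diet and carry the elements named above. They are the 250 bases before the transcription start in RefSeq's table for GRCm38.p6, which is an older build than the GRCm39 of the study's files. The table held 7 of the 8 genes in 9 windows and had no entry matched to Hmox1. An ARE core was searched as TGACNNNGC or TGAGNNNGC and an MRE core as TGCACNC or TGCGCNC, on both strands. The letters of the ARE core overlap those of the AP-1 motif, TGANTCA. Capitals mark ARE cores in Srxn1 (chr2:152105274-152105523, plus strand), and MRE cores in Mt1 (chr8:94178839-94179088, plus strand) and Mt2 (chr8:94172368-94172617, plus strand).
Srxn1: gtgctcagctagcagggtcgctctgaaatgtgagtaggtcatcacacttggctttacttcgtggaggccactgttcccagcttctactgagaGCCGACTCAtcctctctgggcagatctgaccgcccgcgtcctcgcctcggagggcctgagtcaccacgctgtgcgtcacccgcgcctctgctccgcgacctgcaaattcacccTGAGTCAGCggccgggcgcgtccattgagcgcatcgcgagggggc
Mt1: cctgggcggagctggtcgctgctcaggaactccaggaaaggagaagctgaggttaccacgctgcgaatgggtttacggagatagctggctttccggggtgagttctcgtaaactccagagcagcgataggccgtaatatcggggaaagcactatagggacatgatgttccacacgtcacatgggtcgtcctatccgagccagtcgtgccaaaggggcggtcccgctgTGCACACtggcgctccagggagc
Mt2: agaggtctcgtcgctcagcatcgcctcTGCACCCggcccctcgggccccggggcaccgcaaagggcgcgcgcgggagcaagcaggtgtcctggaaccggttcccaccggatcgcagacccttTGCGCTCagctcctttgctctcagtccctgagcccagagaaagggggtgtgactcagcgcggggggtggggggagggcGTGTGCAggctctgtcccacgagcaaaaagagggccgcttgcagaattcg
Srxn1 held 2 ARE cores, starting 158 and 45 bases before the start site. The Mt1 window held 1 MRE core, 23 bases before its RefSeq start. Mt2 held 3 MRE cores, at 223, 128 and 50 bases, and 1 ARE core at 79 bases. Nfe2l2 held 1 ARE core at 240 bases, and 1 of the 3 Txnrd1 windows held 1 at 92 bases. Srxn1 also held 1 MRE core at 19 bases, and the windows of Keap1 and Nqo1 held neither motif. Of 32841 promoter windows of this length, 23% held at least 1 ARE core and 3.18% at least 2. At least 1 MRE core was in 21.4% and at least 3 in 1.26%. These are matches of letters and were not tested as binding sites. The Mt1 window may not lie before the start most in use. Of the exon bins, the pieces of exons counted apart, bins 1 and 2 of Mt1 held little. They held 0.648 and 1.11 CPM in control livers, beside 6.54 to 10.7 CPM in bins 3, 5 and 7. In SCN controls they held 2.64 and 4.58 CPM, beside 45.3 to 143 CPM. Whether most Mt1 RNA starts further downstream was not tested, and bases beyond the window were not searched.

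The MCD diet raised all 8 genes in the liver when averaged over the 6 times. The largest rises were in Srxn1, Mt2, Nqo1, Mt1 and Hmox1, and the sensor genes Nfe2l2 and Keap1 moved by 0.20 and 0.10 on the log2 scale. All 8 passed edgeR's quasi-likelihood test with Benjamini-Hochberg adjustment, where 46.6% of the 20249 genes tested passed and 25.3% passed as higher. Passing the threshold was therefore common in this comparison, and the sizes of the differences carry more than the count. The median of all genes tested was 0.02. With scaling by library totals alone that median became 0.27, 10633 genes passed as higher and 1540 as lower in place of 5130 and 4296, and all 8 genes still passed as higher. Bulk RNA does not separate a change in the RNA per cell from a change in the number of cells of a type.

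Nfe2l2, the gene of NRF2 itself, ranged in the control livers from 56.8 to 111 CPM with a median of 78.9, and in the MCD livers from 67.8 to 128 CPM with a median of 91.5. The ranges overlapped widely: 2 of 18 MCD livers stood above all controls. The difference was 0.20 ± 0.06 (log2, SE; adjusted p = 0.00467), and 0.21 without control CT08 (a). Keap1, the adaptor that hands NRF2 to a ubiquitin ligase, ran from 49.8 to 65.9 CPM (median 57.5) in controls and from 52.5 to 72 CPM (median 61.1) on MCD. Its difference of 0.10 ± 0.04 had an adjusted p of 0.0294, and 0.0427 without control CT08 (a). Leaving out 1 library at a time kept the Keap1 call in 22 of 36 fits, with adjusted p from 0.0163 to 0.0845. Neither sensor gene passed within the low or the high mt-Nd6 set alone, where the differences were 0.08 and 0.30 for Nfe2l2 and 0.06 and 0.11 for Keap1. An annotated antisense gene overlaps exons of Keap1, and the strand setting of the counting is not given in the sources used here.

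Srxn1 encodes sulfiredoxin, which restores overoxidised peroxiredoxins, and had the largest difference of the group. Control livers lay between 21.8 and 33.9 CPM except for control CT08 (a), at 219 CPM. The MCD livers ran from 58.9 to 258 CPM with a median of 118, against a control median of 25.8. Control CT08 (a) was thus higher than most MCD livers, and without it every MCD liver stood above every control, a separation that 0.691% of genes showed. The difference was 1.98 ± 0.22 (log2, SE; adjusted p = 8.68e-08), and 2.27 ± 0.14 without control CT08 (a). Within the low and high mt-Nd6 sets it was 1.70 and 2.35, and both passed.

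Txnrd1 encodes the cytosolic thioredoxin reductase. Its levels went from 92.7 to 176 CPM (median 111) in controls, where 176 CPM was control CT08 (a), and from 106 to 188 CPM (median 147) on MCD. The diets overlapped, since the 3 MCD livers of CT16 lay between 106 and 128 CPM. The difference was 0.31 ± 0.06 (adjusted p = 4.31e-05), and 0.35 ± 0.04 without control CT08 (a). It was 0.21 within the low mt-Nd6 set, which did not pass, and 0.42 within the high set, which did.

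Nqo1, a quinone reductase widely used as a readout of NRF2, had the lowest level per kilobase of the group in liver. Controls ran from 1.68 to 12.4 CPM with a median of 3.03, and MCD livers from 4.2 to 19.1 CPM with a median of 9. The highest control was again CT08 (a), and 11 of 18 controls lay below every MCD liver. The difference was 1.23 ± 0.18 (log2, SE; adjusted p = 2.95e-06), 1.38 ± 0.15 without control CT08 (a), and 0.86 and 1.95 within the low and high mt-Nd6 sets, where both passed.

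Hmox1 encodes the inducible heme oxygenase, which opens heme to biliverdin, iron and carbon monoxide. Control livers held 13.4 to 56.8 CPM (median 20.5), and MCD livers 26.4 to 116 CPM (median 36.6). Of the controls, 15 of 18 lay below every MCD liver, and control CT08 (a) was the highest at 56.8 CPM. The difference was 1.00 ± 0.17 (adjusted p = 2.73e-05), and 1.14 ± 0.15 without control CT08 (a). It was 0.77 (adjusted p = 0.0619) within the low mt-Nd6 set and 1.5 within the high set. Hmox1 is also strongly made by macrophages, and 9 of 10 macrophage markers rose on MCD, with a median of 0.45, where 25.3% of all genes rose. Their summed level was 358 to 874 CPM in controls, with control CT08 (a) the highest, and 487 to 1047 CPM on MCD. Marco rose by 2.11, Cd68 by 1.01 and Cd5l by 0.57, and no marker of the list was absent from the liver table. The part of these cells in the Hmox1 difference was not tested.

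Mt1 and Mt2, whose starts lie 6.42 kb apart on chromosome 8, varied widely between mice. Mt1 went from 1.59 to 70.2 CPM (median 10.0) in controls and from 7.60 to 180 CPM (median 29.7) on MCD. Mt2 went from 0.427 to 46.2 CPM (median 2.03) in controls and from 2.35 to 133 CPM (median 10.9) on MCD. The diets overlapped over most of their ranges, although 8 controls for Mt1 and 9 for Mt2 lay below every MCD liver. The differences were 1.19 ± 0.41 for Mt1 (adjusted p = 0.0189) and 1.58 ± 0.51 for Mt2 (adjusted p = 0.0125). Without control CT08 (a) they were 1.39 and 1.80. Both calls ended in the fit without a term for sex, at 0.78 (adjusted p = 0.169) and 1.14 (adjusted p = 0.0799). Within the low mt-Nd6 set the differences were 0.37 and 0.28, neither passing, and within the high set 2.89 and 3.89, both passing. Whether the difference between these sets exceeds its error was not tested. An antisense gene overlaps Mt2 exons in the annotation, as at Keap1.

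**Figure D1:**
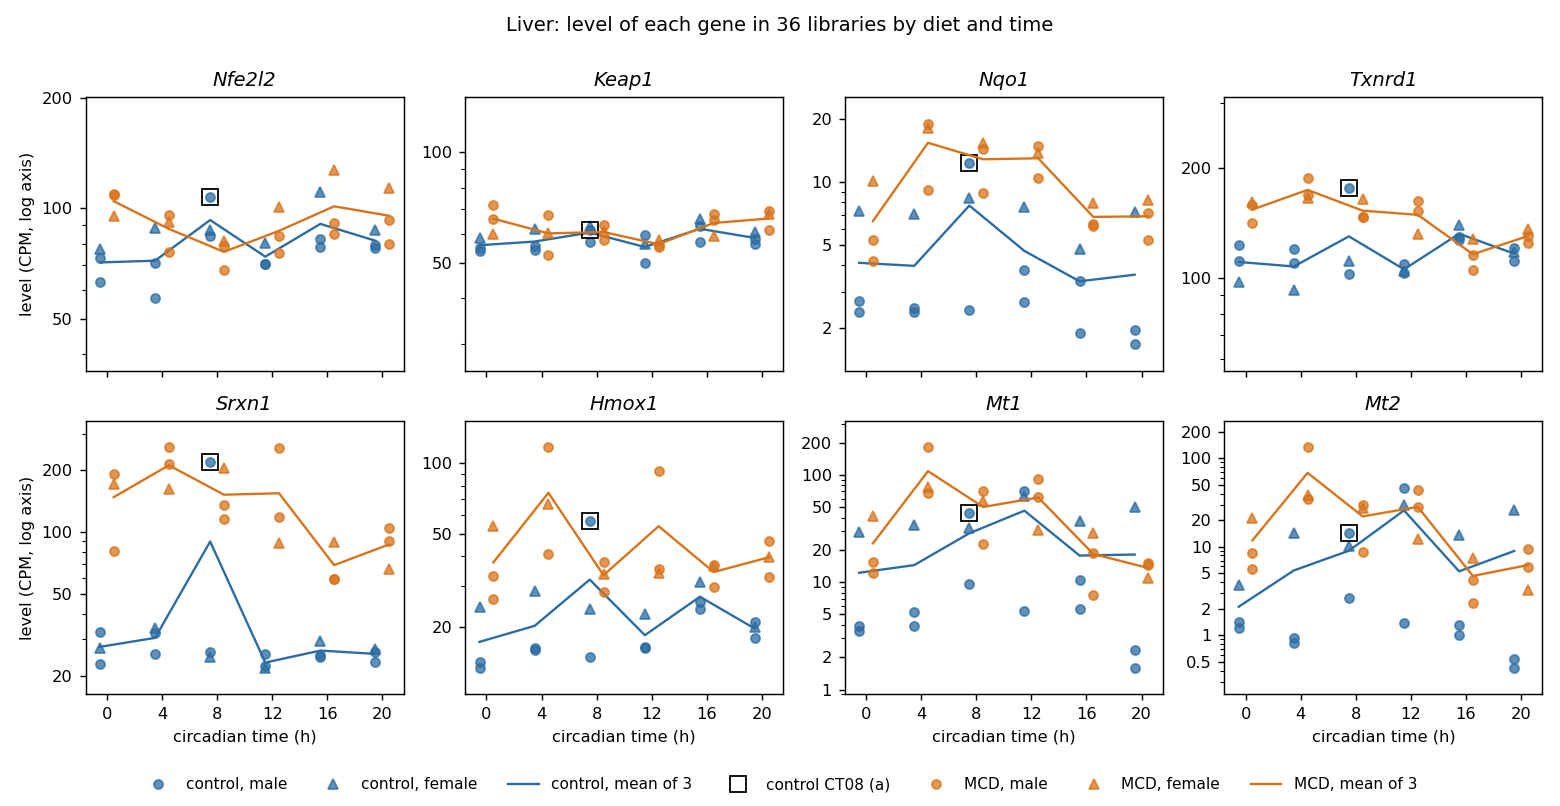
Level of each gene (CPM, log axis) in the 36 liver libraries against circadian time in hours, with circles for males, triangles for females and lines for means of 3 libraries. Open squares mark control CT08 (a), which for Srxn1 stands at 219 CPM while the other controls lie between 21.8 and 33.9 CPM.

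**Figure D2:**
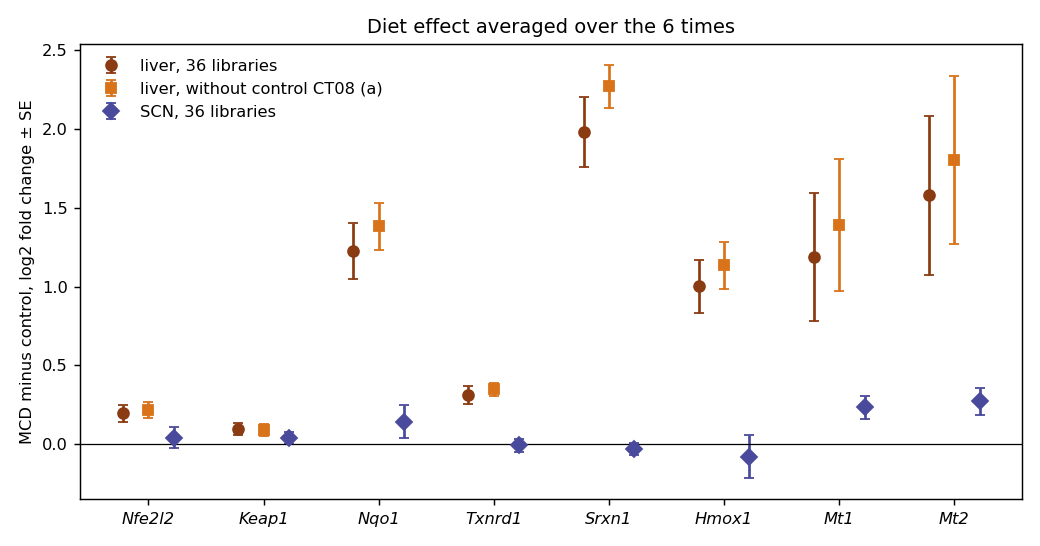
Diet effect averaged over the 6 times (log2 fold change, MCD minus control, ± SE) for the liver with all libraries, the liver without control CT08 (a), and the SCN. The liver values run from 0.10 for Keap1 to 1.98 for Srxn1, and the SCN values from -0.08 for Hmox1 to 0.27 for Mt2.

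The diet effect in liver was also tested at each time, and the test of a difference between times is the rhythm difference given further on. At CT04, 6 of the 8 genes passed as higher, against 9.46% of all genes. Nqo1 rose by 2.11, Hmox1 by 1.91, Txnrd1 by 0.70, Srxn1 by 2.78, Mt1 by 3.62 and Mt2 by 4.58. At that time the control livers 1, 2 and 3 held 0.816, 0.933 and 14.5 CPM of Mt2, and the MCD livers 133, 34.3 and 38.6 CPM. For Mt1 the controls held 3.90, 5.22 and 34.2 CPM and the MCD livers 180, 67.0 and 77.7 CPM. The female, number 3, was the highest control for both genes, and all MCD livers stood above it, a separation that 17.2% of genes showed at CT04. Both metallothionein calls were lost without control CT04 number 1, control CT04 number 2 or MCD CT04 number 1. The adjusted p then lay between 0.085 and 0.106.

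At CT12, 4 genes passed as higher, against 8.08% of all genes: Nqo1 rose by 1.62, Hmox1 by 1.58, Txnrd1 by 0.49 and Srxn1 by 2.73. Hmox1 was highest in MCD CT12 number 2, at 92.0 CPM beside 35.4 and 34.0 CPM, and without this library the difference was 0.87 (adjusted p = 0.203). Leaving out 1 of 4 libraries in turn (control CT12 number 1 or 2, MCD CT12 number 1 or 2) ended calls of Nqo1, Hmox1 or Txnrd1, and the count then fell as low as 1. At CT00, 3 genes passed as higher, against 6.57%: Nfe2l2 rose by 0.57, Txnrd1 by 0.48 and Srxn1 by 2.43. This was the only time at which Nfe2l2 passed, with MCD livers at 108, 110 and 95.5 CPM above controls at 73.2, 62.8 and 77.6 CPM, a separation seen in 14.3% of genes. That call reached an adjusted p of 0.0508 without MCD CT00 number 1. The Txnrd1 call was lost without any 1 of 4 CT00 libraries (control number 2 or 3, MCD number 1 or 3), with adjusted p from 0.0612 to 0.0996. Without control CT08 (a) Hmox1 passed as well, at 1.11 (7.25% of genes passed as higher).

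At CT08 none of the 8 passed, where 1.3% of genes did, at an unadjusted p under 0.05 only Nfe2l2, as lower, and by DESeq2 none passed. Control CT08 (a) is 1 of only 3 controls at that time. Without it 3 genes passed as higher, against 2.72% of all genes: Nqo1 rose by 1.60, Txnrd1 by 0.50 and Srxn1 by 2.57. Control female number 3 and control (b) held 24.7 and 26.1 CPM of Srxn1 beside 116, 135 and 204 CPM in the MCD livers. At CT16 none passed, where 12.5% of genes did; Srxn1 stood at 1.39 (adjusted p = 0.0877) and Nqo1 at 1.09 (adjusted p = 0.0971), the 2 with an unadjusted p under 0.05, and DESeq2 also called none. Without control CT08 (a), which is a library of another time, both passed at CT16, at 1.37 and 1.09 (7.44% of genes passed as higher). At CT20 Srxn1 alone passed (1.76, adjusted p = 0.0353; 5.7% of genes passed as higher), and leaving out any 1 of the 6 CT20 libraries took its adjusted p to between 0.0512 and 0.119. Without control CT08 (a) its adjusted p was 0.000563, and Nqo1 passed too at 1.15 (6.64% of genes passed as higher). Across the 6 times Srxn1 was therefore called at 4, and at all 6 without control CT08 (a).

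**Figure D3:**
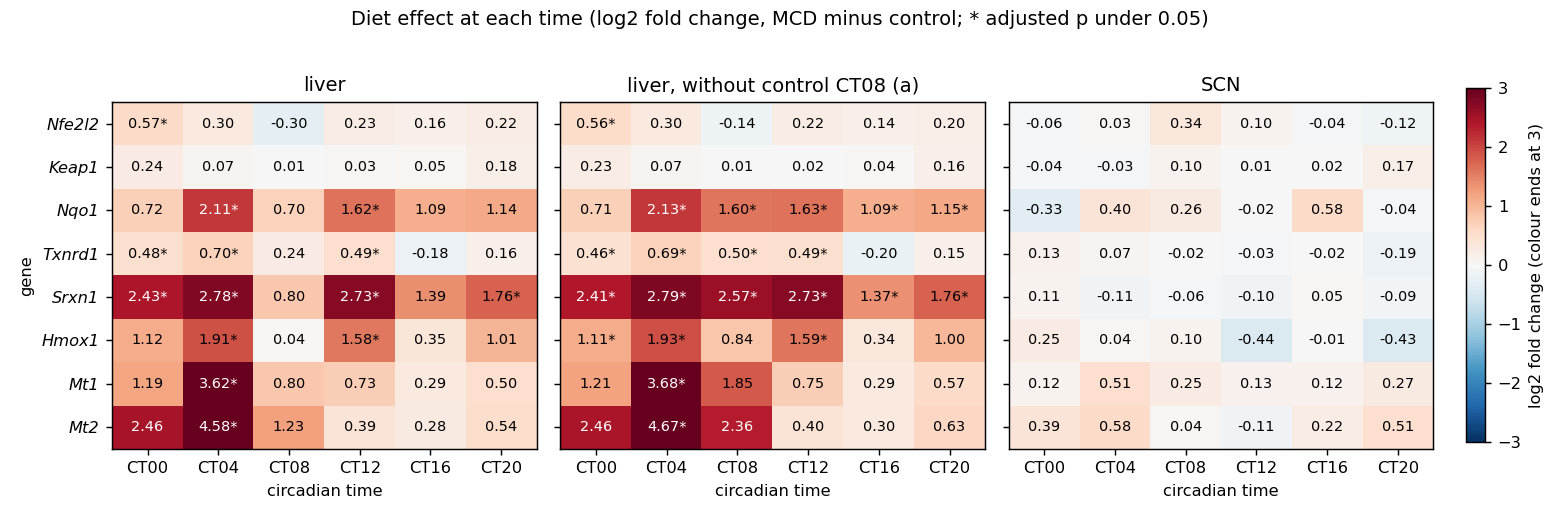
Diet effect at each circadian time (log2 fold change, MCD minus control) for each gene, in the liver, in the liver without control CT08 (a) and in the SCN, with stars for an adjusted p under 0.05. Srxn1 is starred at 4 times in the liver and at all 6 without control CT08 (a), and no SCN cell is starred.

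Daily rhythms were tested as a 24 h cosine over the 6 time means of each diet. On the control diet none of the 8 genes passed in liver, where 17.8% of genes did; Nqo1, Srxn1, Mt1 and Mt2 had unadjusted p from 0.026 to 0.035, and DESeq2 called Mt2. On MCD 6 of the 8 passed, where 28.2% of genes did. Txnrd1 had a peak-to-trough range of 0.49 ± 0.12 (log2, SE) and a fitted peak at 4.80 ± 0.92 h, Srxn1 1.41 ± 0.43 at 5.26 ± 1.16 h, and Nqo1 1.32 ± 0.36 at 7.95 ± 1.03 h. Mt1 had a range of 2.62 ± 0.78 peaking at 7.05 ± 1.14 h, and Mt2 one of 3.18 ± 0.99 peaking at 6.25 ± 1.19 h. These 5 peaks fell in the subjective day, between 4.80 and 7.95 h. Nfe2l2 had a range of 0.37 ± 0.13 with its peak at 20.5 ± 1.32 h (adjusted p = 0.0329), late in the subjective night. In the fit without a sex term 2 of the 8 genes passed, where 25.3% of genes did. Leaving out 1 library at a time kept the calls of Nqo1 and Txnrd1 in 36 of 36 fits, of Mt1 in 32, of Mt2 in 30, of Nfe2l2 in 26 and of Srxn1 in 21. The Mt1 call ended without MCD CT04 number 1, CT08 number 2, or CT20 number 2 or 3, and the Mt2 call without these or MCD CT16 number 2 or 3.

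A rhythm called on 1 diet alone does not show that the diets differ. The difference in rhythm was called for none of the 8 genes, where 4.87% of all genes passed. Txnrd1 was nearest, with an adjusted p of 0.0505, and it passed at 0.0026 without control CT08 (a), where 6.01% of genes did. Nfe2l2 and Mt2 also had unadjusted p under 0.05, and DESeq2 called 1 gene, Txnrd1. The MCD means of Txnrd1 went down from 174 CPM at CT04 to 116 CPM at CT16, while the control means lay between 106 and 132 CPM.

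Females had higher levels of some of these genes in liver. The female was number 3 in every group of both tissues, so sex cannot be told apart from anything else particular to number 3. Female minus male was 0.85 ± 0.17 for Nqo1 (adjusted p = 0.000988), 1.33 ± 0.37 for Mt1 (adjusted p = 0.0203) and 0.23 ± 0.06 for Nfe2l2 (adjusted p = 0.0117), so 3 of 8 passed as higher in females against 5.44% of genes. Mt2 stood at 1.42 ± 0.48 (adjusted p = 0.0638) and passed without control CT08 (a), at 1.53, where 6.59% of genes passed as higher. The Mt1 call was lost without the female of control CT20, MCD CT00 or MCD CT16, with adjusted p up to 0.068. On the control diet the 6 females held 29.3 to 63.4 CPM of Mt1. The 12 control males held 1.59 to 10.5 CPM apart from control CT08 (a) at 44.2 CPM and control CT12 number 1 at 70.2 CPM. On MCD the sexes overlapped, with 11.0 to 77.7 CPM in females and 7.60 to 180 CPM in males.

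The rise of some genes averaged over the sexes was not seen in the female means. In females Mt1 was 41.0 ± 13.2 CPM on control and 41.1 ± 23.5 CPM on MCD (SD, n = 6 each), and in males 13.8 ± 21.2 and 48.1 ± 50.5 CPM (n = 12 each). Keap1 was 61.0 ± 3.43 and 61.0 ± 3.51 CPM in females and 56.7 ± 3.51 and 62.7 ± 6.24 CPM in males. Mt2 was 16.3 ± 9.84 and 18.4 ± 13.3 CPM in females and 6.01 ± 13.2 and 26.2 ± 36.4 CPM in males. The diet effect on Mt1 was -2.25 ± 0.77 (log2, SE) in females relative to males, with an adjusted p of 0.164. For Mt2 it was -2.73 ± 1.00 (adjusted p = 0.207), and for Nqo1 -0.78 ± 0.34 (adjusted p = 0.328). None of the 8 passed, where 1.77% of genes did, these 3 had an unadjusted p under 0.05, and DESeq2 called Mt1 and Mt2. The result rested on single libraries: without control CT12 number 1 both metallothioneins passed, at -2.68 (adjusted p = 0.0339) and -3.39 (adjusted p = 0.0335). Without control CT08 (a) Nqo1 passed, at -1.01 (adjusted p = 0.0171), where 2.4% of genes did.

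A wider list of NRF2 target genes moved in both directions in the MCD liver. Of 32 listed targets tested, 20 rose and 6 fell, with a median of 0.58, where 25.3% of all genes rose and 21.2% fell with a median of 0.02. The largest rises were in Slc7a11, the cystine carrier, at 4.83 ± 0.60 from a control mean of only 0.179 CPM, in the glutathione transferase Gsta2 at 2.20 ± 0.22, and in Osgin1 at 2.05 ± 0.15. The 3 largest falls were in genes that make NADPH or serve the pentose phosphate pathway. Me1, malic enzyme, fell by 1.44 from 540 ± 214 to 190 ± 63 CPM (mean ± SD, n = 18 each), G6pdx fell by 0.76 and Taldo1 by 0.29. Among 10 regulators and partners of NRF2, Maff rose by 1.06, Mafk by 0.49 and Nfe2l1 by 0.23, a total of 4 rose, and the repressor Bach2 fell by 0.35. The median of that list was 0.00. With library totals alone, where 52.5% of all genes were higher and 7.61% lower, 23 targets were higher and 2 lower, and 9 regulators were higher. Without control CT08 (a) 20 targets rose and 6 fell, where 25.8% of all genes rose.

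**Figure D4:**
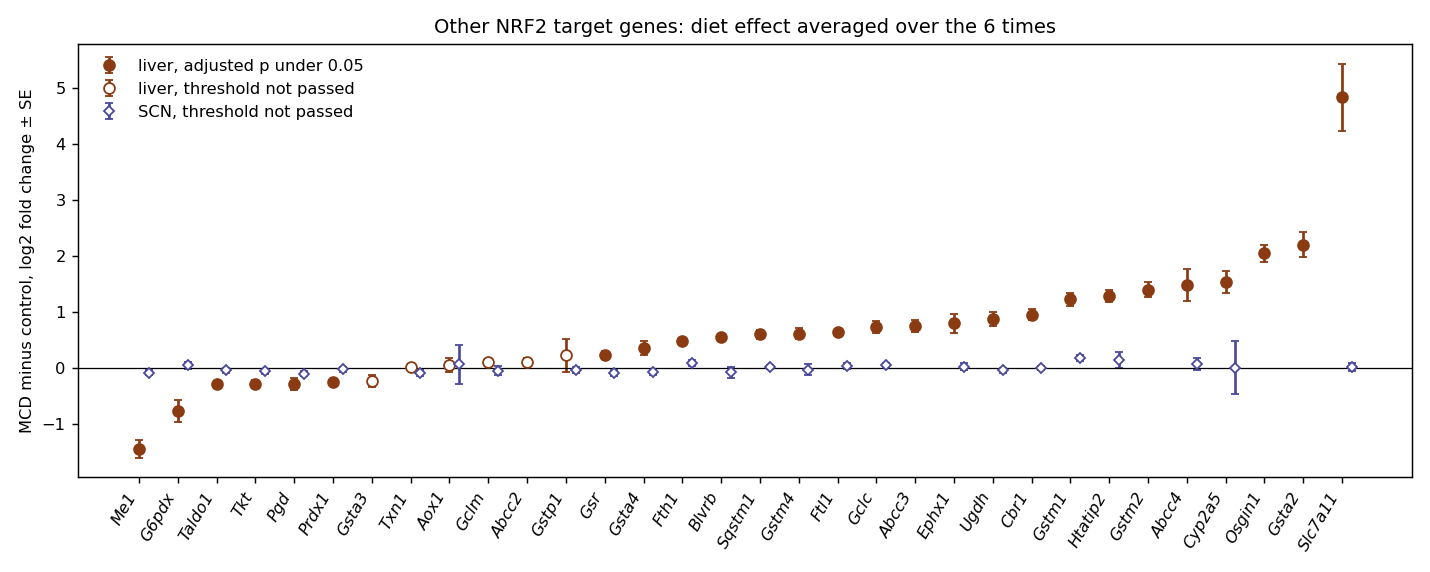
Diet effect averaged over the 6 times (log2 fold change, MCD minus control, ± SE) for the 32 other NRF2 targets tested in liver and those of them tested in the SCN; filled points passed the threshold. In liver 20 lie above 0 and 6 below among the filled points, and no SCN gene passed.

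Genes that work with the products of Srxn1, Txnrd1, Hmox1 and the metallothioneins were counted against the same shares of all genes, 25.3% that rose and 21.2% that fell. In the thioredoxin and peroxiredoxin list 3 of 17 genes rose and 8 fell, with a median of -0.15. Sesn2 rose by 0.53, Prdx3 by 0.30 and Selenop by 0.19, while Prdx5 fell by 0.43, Prdx6 by 0.39 and Sesn1 by 0.37. With library totals alone, where 52.5% of all genes were higher and 7.61% lower, this split became 10 higher and 2 lower. In the heme list 4 of 13 rose and 3 fell (median -0.01): the heme scavenger Hpx rose by 0.73, the hemoglobin scavenger Hp by 0.66 and the biliverdin reductase Blvrb by 0.56. The synthesis genes Ppox and Urod fell by 0.45 and 0.33, and the biliverdin reductase Blvra by 0.22. With library totals alone 10 heme genes were higher and 1 lower, beside that 52.5% and 7.61%. In the zinc list 4 of 12 rose and 3 fell (median 0.10). The importers Slc39a5 and Slc39a4 rose by 1.01 and 0.99, and the exporter Slc30a1, a target of MTF1 like the metallothioneins, by 0.18. Slc30a10 fell by 0.86, Slc39a8 by 0.32 and Slc30a7 by 0.13. With library totals alone 9 of the zinc genes were higher and 1 lower, beside the same 52.5% and 7.61%. With TMM scaling the heme and zinc counts lie close to the shares of all genes, so they are no result about these lists. Mt3 and Mt4 were not in the liver table by symbol.

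In the SCN the same genes were present but none was called between the diets, averaged over the times (0.0635% of 15759 genes were called) or at any single time (0 to 0.0444% of genes were called, with 0.0444% at CT04 and 0.00635% at CT00, CT16 and CT20). DESeq2 called none of the 8 either. Mt1 and Mt2 were the 2 with an unadjusted p under 0.05 in the average. At single times this held for Mt1 and Mt2 at CT04, Nqo1 at CT16 and Mt2 at CT20. Mt1, which astrocytes make in quantity in brain, ran from 145 to 318 CPM (median 232) in controls and from 195 to 447 CPM (median 259) on MCD. Its difference was 0.23 ± 0.07 (log2, SE; adjusted p = 0.448). Mt2 ran from 46.8 to 182 CPM (median 107) and from 78.3 to 269 CPM (median 120), a difference of 0.27 ± 0.08 (adjusted p = 0.464). At CT04 all 3 MCD samples lay above all 3 controls for Mt1, Mt2 and Nqo1, a separation seen in 4.16% of genes. At CT08 the same held for Nfe2l2 and Keap1 (4.25% of genes), and at CT20 all 3 MCD samples lay below all 3 controls for Txnrd1 (3.96% of genes). The 6 astrocyte markers summed to 2300 to 3102 CPM in controls and 2337 to 3118 CPM on MCD. The erythrocyte markers summed to 76.6 to 1518 CPM in controls and 43.6 to 395 CPM on MCD, and their part in these values was not tested.

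Srxn1, with the largest liver response, held 79.8 to 150 CPM (median 111) in SCN controls and 76.7 to 136 CPM (median 107) on MCD, a difference of -0.03 ± 0.04. Keap1 differed by 0.04 ± 0.04, Txnrd1 by -0.01 ± 0.04, Nfe2l2 by 0.04 ± 0.07, Nqo1 by 0.14 ± 0.10 and Hmox1 by -0.08 ± 0.14. Hmox1 stood at 4.49 ± 1.21 and Nqo1 at 6.34 ± 1.82 CPM in SCN controls (mean ± SD, n = 18).

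**Figure D5:**
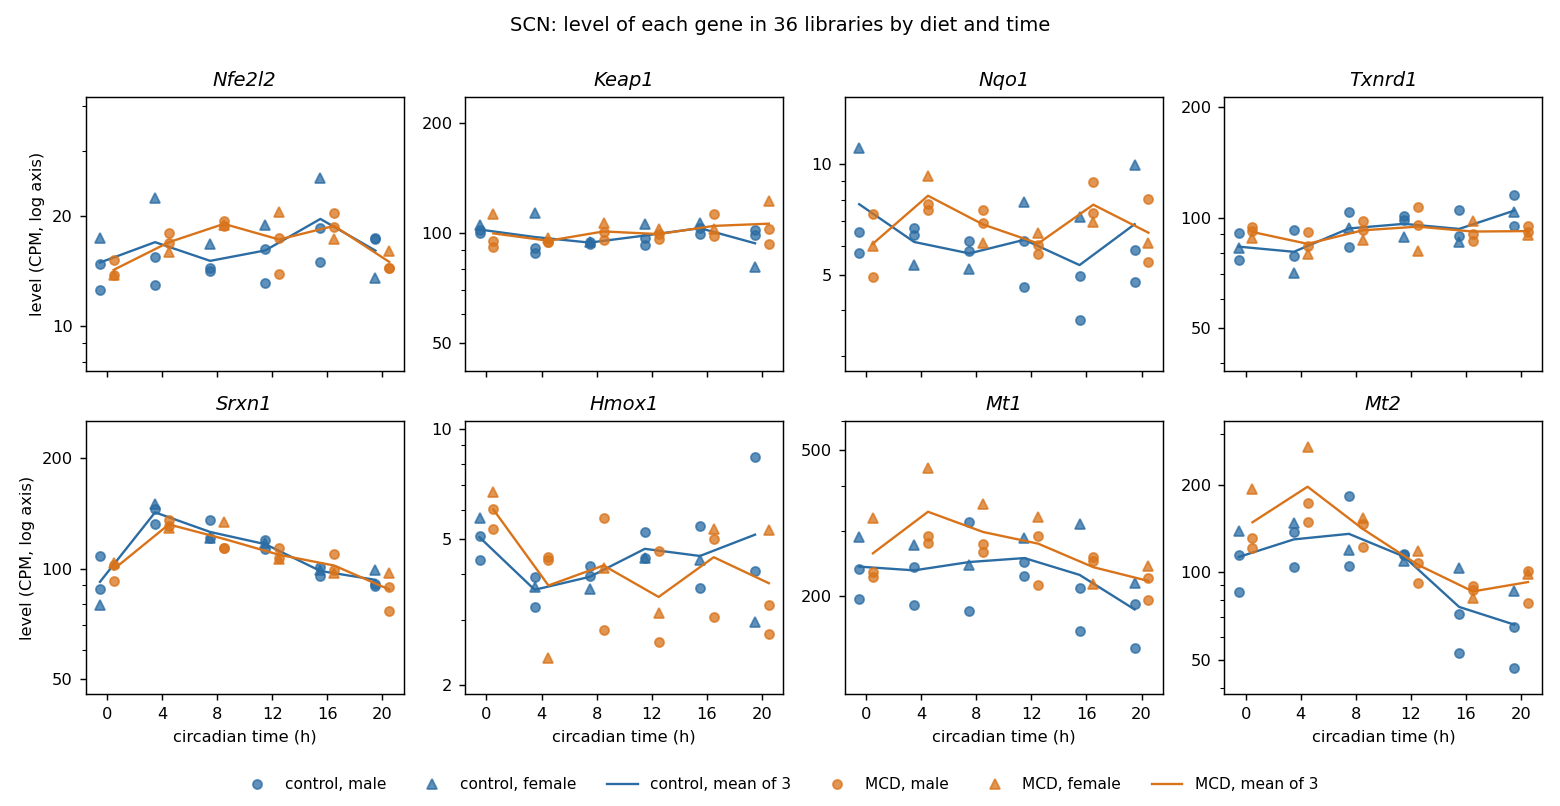
Level of each gene (CPM, log axis) in the 36 SCN libraries against circadian time in hours, with circles for males, triangles for females and lines for means of 3 libraries. The means of Srxn1 and Mt2 are highest at CT04 on both diets, apart from Mt2 in controls, highest at CT08, and the diets overlap for every gene when the times are pooled.

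Srxn1 and Mt2 were rhythmic in the SCN. On the control diet these 2 of the 8 genes passed, where 15.1% of genes did. Srxn1 had a range of 0.59 ± 0.10 (log2, SE) with its peak at 7.34 ± 0.63 h, and control samples at CT04 held 132, 146 and 150 CPM beside 87.9, 109 and 79.8 CPM at CT00. All CT04 controls were thus above all CT00 controls. These are the times with its highest and lowest control mean (143 and 92.1 CPM), and the share of all genes separated between them was not counted. Mt2 had a range of 1.07 ± 0.18 peaking at 6.35 ± 0.63 h. On MCD 3 of the 8 passed, where 16.1% of genes did. Srxn1 again peaked at 6.91 ± 0.76 h with a range of 0.50 ± 0.10, and Mt2 at 4.29 ± 0.60 h with a range of 1.13 ± 0.18. Mt1 had a range of 0.53 ± 0.15 (adjusted p = 0.035), a call that ended without any 1 of 7 MCD libraries and in the fit without a sex term (adjusted p = 0.121). No gene of the 8 differed in rhythm between the diets, where 0.0127% of genes did; DESeq2 called none, and none had an unadjusted p under 0.05.

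Both metallothioneins were also higher in females in the SCN, Mt1 by 0.35 ± 0.08 (adjusted p = 0.00716) and Mt2 by 0.31 ± 0.09 (adjusted p = 0.0297), against 4.75% of genes. The 12 control males held 145 to 318 CPM of Mt1 and the 6 control females 217 to 315 CPM, so the sexes overlapped. The Mt2 call was lost without any 1 of 7 females, with adjusted p up to 0.0948. No difference of the diet effect between the sexes passed in the SCN for any gene, although Nfe2l2 and Nqo1 of the 8 had unadjusted p under 0.05, and DESeq2 called none of the 8.

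The diet effect itself was tested between the tissues. It was smaller in the SCN for 5 of the 8 genes, where 18.9% of 14491 genes passed in that direction. SCN minus liver was -2.01 ± 0.22 for Srxn1 (log2, SE; adjusted p = 5.28e-10), -1.08 ± 0.21 for Nqo1, -1.07 ± 0.22 for Hmox1, -0.32 ± 0.07 for Txnrd1 and -1.27 ± 0.48 for Mt2 (adjusted p = 0.0339). Mt1 stood at -0.94 ± 0.40 (adjusted p = 0.0582), and passed at -1.15 without liver control CT08 (a), where 21.1% of genes passed in that direction, and with DESeq2 at -0.97 (adjusted p = 0.0368). Nfe2l2 and Keap1 did not pass. The metallothionein values moved with the replicate number left out. Mt2 stood at -0.997 (adjusted p = 0.229) without all number 1 libraries, at -0.78 (adjusted p = 0.372) without number 2 and at -2.44 (adjusted p = 0.000389) without number 3, the females. Mt1 stood at -0.72, -0.47 and -1.76, and passed in the last of these alone (adjusted p = 0.00126). The labels do not say which liver and SCN came from 1 mouse, so the libraries were treated as independent.

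Levels on the control diet differed between the tissues for 7 of the 8, where 90.4% of genes did, 46.3% as higher in the SCN and 44.1% as lower. Mt2 was 3.51 ± 0.42 and Mt1 3.16 ± 0.35 higher in the SCN on the log2 scale, and Srxn1 0.74 ± 0.17 higher (1.09 without liver control CT08 (a)). The Srxn1 difference missed the threshold (adjusted p = 0.0538) without all number 2 libraries. Nfe2l2 was 3.24 ± 0.07, Hmox1 3.20 ± 0.18 and Txnrd1 1.31 ± 0.06 higher in the liver. Keap1 stood at -0.24 ± 0.04 and Nqo1 at -0.15 ± 0.17 (SCN minus liver, the latter not passing), and both signs turned with scaling by library totals alone, which moved the median of all genes from 0.04 to 0.75. That scaling called 9228 of 14491 genes higher in the SCN and 3952 lower, in place of 6713 and 6388. The Nqo1 value also turned, to 0.05, without liver control CT08 (a).

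Per kilobase of exons, the order of the genes changed with tissue and diet. The length used was that of all annotated exons of a gene together, 1246 bases for Mt1. Bins 1, 2, 4, 6 and 8 of Mt1 held only 0.111 to 4.58 CPM in SCN controls, beside 45.3 to 143 CPM in bins 3, 5 and 7. The level of Mt1 per kilobase may therefore be understated, and a length of the exons in use was not tried. In control livers Nfe2l2 was first at 21.2 ± 3.55 CPM per kb (mean ± SD, n = 18), and Mt1, Txnrd1, Mt2, Srxn1, Hmox1 and Keap1 followed from 18.4 down to 12.4 CPM per kb. The mean ± SD interval of each of these overlapped that of the next, and Nqo1 was last at 2.95 ± 1.94, with its interval below that of Keap1. The place of Srxn1 rested on control CT08 (a): without it Srxn1 stood at 9.40 ± 1.28 CPM per kb (n = 17), under Keap1 at 12.3 ± 0.853 and Hmox1 at 11.7 ± 3.03. In MCD livers Srxn1 was first at 48.6 ± 23.3 CPM per kb, followed by Mt2 at 40.2 ± 51.7, Mt1 at 36.8 ± 34.3, Hmox1 at 26.0 ± 13.6, Nfe2l2 at 24.2 ± 4.08 and Txnrd1 at 20.6 ± 2.99, neighbours whose intervals overlapped. The interval of Keap1 at 13.2 ± 1.16 lay below that of Txnrd1, and the interval of Nqo1 at 6.60 ± 2.95 below that of Keap1. In SCN controls Mt1 and Mt2 led at 186 ± 40.8 and 179 ± 58.4 CPM per kb, not apart beyond their SDs. Srxn1 at 39.5 ± 7.23, Keap1 at 20.9 ± 1.63 and Txnrd1 at 13 ± 1.60 were each apart from the next. Nfe2l2 at 4.34 ± 0.88, Nqo1 at 4.08 ± 1.17 and Hmox1 at 2.56 ± 0.69 closed the order, with overlapping mean ± SD intervals, although Nqo1 and Hmox1 lay further apart than either SD.

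Counts over exon bins show whether a gene changed evenly along its length. In liver 1 of the 8 genes, Nfe2l2, passed for uneven use by diet (Simes test in edgeR, adjusted p = 3.45e-06), against 3.45% of 11694 genes. Of its 7 bins, bin 5 stood at -0.47 and bin 7 at -0.37 relative to the gene (log2), while bins 1 to 4 lay between 0.03 and 0.05. In bin 5 the control livers held 1.88 ± 0.52 CPM and the MCD livers 1.49 ± 0.57 CPM (mean ± SD), and in bin 1 they held 30.0 ± 6.23 and 39.0 ± 7.02 CPM. The call held with edgeR's gene-level F test and without each replicate number in turn (adjusted p up to 0.0494). For Srxn1 the adjusted p was 1, and 0.053 without the file labelled control CT08 1. In the SCN none of the 8 passed, where 0.0387% of 12916 genes did, none had a gene-level p under 0.05, and edgeR's gene-level F test called none of the 8.

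Between mice of 1 group, several of these genes varied together. Over the 36 livers, with group means and sex taken out, Mt1 and Mt2 had Pearson r = 0.95 and Spearman rho = 0.94 (both p = 1e-05, the smallest that 100000 permutations within groups can give; q = 0.00028 over 28 pairs). Nqo1 and Hmox1 had r = 0.80 (rho = 0.65, permutation p = 2e-05, q = 0.00028), which was 0.69 without the 2 farthest samples and 0.80 with the mt-Nd6 set taken out. Txnrd1 and Srxn1 had r = 0.81 (rho = 0.65, permutation p = 0.00136, q = 0.00952), which rested in part on control CT08 (a), being 0.56 without it. In all 8 of the 28 liver pairs had q under 0.05 for r, and 7 of them joined members of the set Nqo1, Hmox1, Srxn1, Mt1 and Mt2. In the SCN 3 of 28 pairs did so: Mt1 with Mt2 (r = 0.90, rho = 0.87), and Txnrd1 with Mt1 (r = -0.79, rho = -0.74, permutation p = 0.00028, q = 0.00392) and with Mt2 (r = -0.63, rho = -0.56, permutation p = 0.00273, q = 0.0255). The Txnrd1 and Mt1 value was -0.75 without the 2 farthest samples, and libraries high in Mt1 were low in Txnrd1.

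The 2 genes most like each member over all 36 livers, by Pearson r of log2 CPM among 13832 genes, are a description, since these points share diet, time and depth. They were Myo9b (0.97) and Samd4 (0.95) for Srxn1, Csf2ra (0.96) and Basp1 (0.95) for Hmox1, and Ucp2 (0.94) and Ctsb (0.93) for Nqo1. Abhd2 came first for both metallothioneins, at 0.88 for Mt1 and 0.85 for Mt2, with Chmp4c (0.85) and Dcbld1 (0.84) next. Txnrd1 was nearest to Ugdh (0.88), itself a listed NRF2 target, and Zfp750 (0.86), Nfe2l2 to Notch2 and Iqsec1 (both 0.75), and Keap1 to Gimd1 (0.74) and Irgm1 (0.71). In the SCN, over 15714 genes, Mt1 was nearest to Pink1 (0.88) and the ferritin gene Fth1 (0.85), Mt2 to Nop53 (0.84) and Rpl3 (0.83), Srxn1 to Mxi1 (0.85) and Ubl3 (0.84), and Txnrd1 to Nrp2 (0.79) and Tox3 (0.76). For the other 4 members the highest r there was 0.71.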

How the data were processed

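RNA-seq was done on 36 livers and 36 SCN samples. The deposited tables hold read counts per gene, and further deposited files hold read counts per exon bin. Per the submitters' processing notes, Trimmomatic, HISAT2, StringTie, DESeq2 and the GRCm39 build were used, with no versions or roles given; the sources used here do not name the counter or its strand setting. Per the labels' protocols, libraries came from a stranded poly-A kit.

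Counts were fitted in R 4.3.3 with edgeR 4.0.16 (quasi-likelihood test, robust, TMM, filterByExpr with a minimum count of 10, prior count 2), 1 fit per tissue, with the 12 groups of diet and time plus sex as terms. Adjusted p-values are Benjamini-Hochberg values over all genes tested, with a threshold of 0.05. Rhythms were tested on cosine and sine contrasts of 24 h, and sex by diet and tissue by diet as further contrasts. Exon bins were tested with diffSpliceDGE on 34 liver and 36 SCN files; control CT00 numbers 1 and 2 of the liver end early and were not used there. Steps were tested on simulated data. Alternatives were library totals, RLE factors, no filter, no sex term, the replicate number as a block, DESeq2 1.42.0, a term for the mt-Nd6 set, each set alone, and each library left out. Every column of per-sample values was matched to a sample by its name, except the 2 control CT08 males of each gene table, which were matched to their group alone. Marker lists, gene lists and members were chosen with earlier results of these data known.

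Besides the 8 members, the genes named are up to 3 called genes per list and direction by size, and the 2 genes most like each member with a mean of at least 1 CPM. The lists also held markers of hepatocytes, macrophages, SCN neurons, astrocytes, microglia, endothelium, ependyma and erythrocytes. The design text gives the replicates as separate mice, so p-values measure the spread between mice. Exon files were matched to libraries by the labels in their names; 32 of 32 numbered liver files and 32 of 34 numbered SCN files correlated best with their own gene counts. The lowest count of any member in liver was 21, for Mt2 in a control, so counting error is large for that value.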

Additional observations from a re-analysis of the deposited data

Results flagged for a closer look

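For 5 genes the test of the diet effect between the tissues passed, with edgeR's quasi-likelihood test and Benjamini-Hochberg adjustment. The value in SCN minus that in liver was -1.08 for Nqo1, -1.07 for Hmox1, -0.32 for Txnrd1, -2.01 for Srxn1 and -1.27 for Mt2 (log2).

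Nfe2l2 had groups that did not overlap in opposite directions at different times and places. In liver at CT00 every MCD library stood above every control (0.57), and at CT08 every MCD library stood below every control (-0.30, or -0.14 without control CT08 (a)). In the SCN at CT08 every MCD library stood above every control (0.34). Txnrd1 did the same at CT20, with MCD above control in liver (0.16) and below it in the SCN (-0.19). These pairs of times and tissues were not tested against each other, and the rhythm difference between the diets for Nfe2l2 in liver did not pass (edgeR adjusted p = 0.126). In liver 14.3% of genes were fully above at CT00, 6.64% fully below at CT08 and 15.5% fully above at CT20. In the SCN 4.25% were fully above at CT08 and 3.96% fully below at CT20.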

How the results depend on the processing

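Counts of the 8 genes called are given first. In liver, the diet average gave 8, and 2 within the low mt-Nd6 set (4583 of all genes called there, 5096 in the high set, 9426 in all). CT00 gave 3, and 5 with library totals or DESeq2. CT16 gave 0, and 2 with library totals. CT20 gave 1, and 2 with library totals or DESeq2. Counts over all genes also rose with library totals at CT00, CT16 and CT20, as given below, so those gains are not particular to the 8 genes. The control rhythm gave 0, and 1 with DESeq2; the MCD rhythm gave 6, and 2 without a sex term; the rhythm difference gave 0, and 1 with RLE factors, DESeq2 or a term for the mt-Nd6 set. Sex by diet gave 0, and 2 with DESeq2. The tissue difference of the diet effect gave 5, 6 with DESeq2 and 8 with library totals, all as lower in the SCN. Of 14491 genes, 2737 passed in that direction in the main fit, 2831 with DESeq2 and 5098 with library totals. The control level (SCN minus liver) turned with library totals to 0.47 for Keap1 and 0.55 for Nqo1.

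The replicate numbers did not pair samples across the diets: of 16 pairs per tissue, 5 in liver and 3 in SCN had a correlation over 0.1, with values from -0.215 to 0.291 and from -0.171 to 0.254. With the replicate number as a block, the fits leave out both unnumbered control CT08 libraries. CT08 then gave 1 gene called (1.42% of all genes), CT16 2 (13.7%), CT20 2 (12.5%), the rhythm difference 1 (3.05%) and sex by diet 1 (1.49%); Keap1 in the diet average went to an adjusted p of 0.0589. The tissue difference gave 6 with the block, with Mt1 at -1.12 (edgeR adjusted p = 0.0393).

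Leaving out 1 library at a time gave 7 to 8 for the liver diet average, 1 to 4 at CT00, 4 to 6 at CT04, 0 to 3 at CT08, 1 to 4 at CT12, 0 to 2 at CT16 and 0 to 2 at CT20. It gave 0 to 3 for the control rhythm, 2 to 7 for the MCD rhythm, 0 to 1 for the rhythm difference, 2 to 4 for sex and 0 to 2 for sex by diet. In the SCN it gave 2 to 3 for each rhythm and 1 to 3 for sex. Leaving out a replicate number or liver control CT08 (a) gave 4 to 6 for the tissue difference and 6 to 7 for the level. No SCN diet effect was called for the 8 genes in any of these fits.

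Counts over all genes moved by more than 1.5 times with library totals at CT00 (3971 from 2550), CT12 (6475 from 3081), CT16 (4162 from 2532) and CT20 (3560 from 2288). With DESeq2 they moved at CT08 (651 from 263), for the rhythm difference (2060 from 986), for sex by diet (741 from 359) and for the SCN diet average (48 from 10; 6 without a sex term and 4 with the block). At single SCN times DESeq2 called 5 to 29 genes and edgeR 0 to 7. CT08 gave 140 without a sex term, and the block gave 651 for the liver rhythm difference and 1248 in place of 2378 for the SCN control rhythm. The exon F test called 680 genes in place of 404 in liver. Leaving out 1 library gave 37 (without control CT08 (b)) to 1212 (without control CT08 (a)) genes at CT08, and 1229 to 3059 at CT00, 1994 to 4249 at CT04, 1249 to 3810 at CT12, 1140 to 3160 at CT16 and 1238 to 2845 at CT20. It gave 634 to 1243 for the liver rhythm difference, 229 to 497 for sex by diet and 712 to 2636 for sex in the SCN. Without replicate number 1 the tissue difference called 2941 genes and without number 2 3167, from 5025, and the liver exon test went from 404 to between 174 and 530. Of all such counts, 100 moved by over 1.5 times and 779 did not with a library left out, and 33 did and 134 did not under the other alternatives. Single genes kept their state, called or not, in 1279 of their other fits, while 33 gained a call, 22 lost one and 2 reversed. Signs were compared only where a gene was called in the main or the other fit, and not for rhythms. Changes of sign without a call thus count as kept, such as the Nqo1 level between tissues, at 0.05 without liver control CT08 (a). With a library left out, 6901 kept their state, 37 gained a call and 94 lost one. The cause of these changes was not tested. Mt2 in liver, at 21 counts in 1 control, is the value that depth limits most.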

Other observations

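Genes of the glucocorticoid and acute phase responses were also listed. In the MCD liver 3 of 9 glucocorticoid genes rose and none fell (median 0.37): Sgk1, a kinase of ion transport, by 0.96, Fkbp5, a chaperone of the receptor, by 0.72 and the clock gene Per1 by 0.66. The other 6 did not pass. Of 7 acute phase genes 2 rose, Lcn2 by 2.49 and Steap4 by 0.39, and Orm1 fell by 0.68 (median 0.27). With library totals alone 4 and 5 genes of these lists were called, where 52.5% of all genes were higher and 7.61% lower. The counts before these, with TMM scaling, stand beside 25.3% of all genes that rose and 21.2% that fell.

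Within the low mt-Nd6 set 1 acute phase gene passed, as lower, and 1 glucocorticoid gene, as higher, where 12.4% of all genes passed as higher and 12.9% as lower. The counts of cell type markers in liver that follow are over all livers, where 25.3% of all genes rose and 21.2% fell. Of hepatocyte genes 3 of 4 fell (median -0.31), and of erythrocyte genes 4 of 5 fell (median -0.80). Of the microglia markers, which liver macrophages partly share, 3 of 4 rose (median 0.44). Endothelium and astrocyte markers each had 2 that rose and 2 that fell, of 4 and 6 tested. Of 2 ependyma markers 1 fell, and the 1 SCN neuron marker tested was not called. In the SCN edgeR called no gene of these marker or pathway lists in the diet average, and DESeq2 called 4 of 5 erythrocyte markers and 1 of 6 astrocyte markers, all as lower. Over all 15759 genes DESeq2 called 24 as lower there. Nqo1 and Txnrd1 had r = 0.43 between mice of a group in liver and -0.002 without control CT08 (a), and Nqo1 and Srxn1 went from 0.59 to 0.23 (permutation tests within groups, neither passing over 28 pairs).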
